A study of Mus musculus with 12 samples.

Results

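The cytosolic factors that start, carry on and end protein synthesis were examined in mouse heart. They were taken as every listed symbol that begins with *Eif1* to *Eif6*, Eef1 or *Eef2*, together with *Etf1*, *Gspt1* and *Gspt2*, leaving out the Eif2ak kinases, the symbols that contain akmt, and Eef1e1. This gave 62 of the 21669 transcript names, each of the 62 genes represented by a single transcript. By role, 5 belong to the eIF1 and eIF1A families, 4 to eIF2, 5 to eIF2B, 14 to eIF3, 11 to eIF4 and 5 to eIF5, eIF5A, eIF5B and eIF6. A further 6 are elongation factors, 3 are release factors, and 9 are proteins that bind, modify or stand in for a factor. The libraries came from left ventricular tissue of adult wild-type (WT) and Rpl3l-/- (KO) mice, lysed in the presence of cycloheximide, a drug that holds ribosomes on mRNA. *Rpl3l* encodes RPL3L, the form of ribosomal protein RPL3 made in heart and skeletal muscle. Lysate digested with RNase I gave ribosome-protected fragments (footprints), and undigested lysate gave poly(A)-selected RNA. Each genotype had 3 footprint and 3 RNA libraries, 12 in all, described in the series as biological triplicates. Whether RNA and footprint libraries of a number came from a single heart, and the sex, exact age, strain and construction of the allele, are not given in the sources used here.

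In the initiation pathway, eIF1 and eIF1A open the small ribosomal subunit for scanning, eIF2 carries the initiator tRNA, eIF2B recharges eIF2 with GTP, and eIF3 is the large scaffold on the small subunit. The eIF4 proteins bind the mRNA cap (eIF4E), bridge it to the ribosome (eIF4G) and unwind the 5′ UTR (eIF4A, helped by eIF4B and eIF4H), while eIF5 triggers GTP hydrolysis by eIF2 and eIF5B joins the subunits. In elongation, eEF1A delivers aminoacyl-tRNA, the eEF1B complex recharges it, and eEF2 moves the ribosome by a codon. The release factors eRF1 (*Etf1*) and eRF3 (*Gspt1* or *Gspt2*) read the stop codon and free the chain. Adult heart, skeletal muscle and neurons are known for replacing eEF1A1 in part with the isoform eEF1A2.

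Libraries held between 3827862 and 8459004 raw counts. The share of mitochondrially encoded transcripts lay between 2.28% and 5.22% in footprints and between 49.8% and 58.2% in RNA. The translation factors held between 0.926% and 1.16% of the nuclear footprint counts, and between 2.03% and 2.27% of the nuclear RNA counts. Levels are given as CPM, read counts scaled to a common library size within an assay, on which 3 counts, the detection floor used here, equal 0.304 to 0.791 CPM. This floor covers counting error only. All 5 cardiomyocyte markers were detected in every group, with a summed footprint level of 87585 to 96859 CPM in WT. The 4 skeletal muscle markers summed to at most 5.12 CPM in any library. Markers of atrial, fibroblast, endothelial, smooth muscle, macrophage, erythroid and fat cells were detected in every group, as were 4 Y-linked genes. None of the marker genes tested was called between genotypes, where 1 of 8379 genes was called in RNA and 1 of 11153 in footprints. The 3 atrial markers had estimates above 0 (KO over WT) in both assays, 2 of them at an unadjusted edgeR p below 0.05 in each. Their median log2 difference was 0.65 in RNA and 0.33 in footprints. In footprints, 2 of 5 cardiomyocyte markers and 1 of 3 smooth muscle markers, all lower in KO, also had such a p. *Rpl3l* itself had 937, 985 and 1108 footprint counts in WT and 65, 30 and 61 in KO. In RNA it had 2987, 2726 and 3329 counts in WT and 276, 310 and 442 in KO, so the labels held. In whole tissue, fewer cells of a type and less RNA per cell cannot be told apart, and p-values measure the spread between these libraries.

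Footprint density, the footprint CPM per kilobase of coding sequence, ranged widely among the factors. *Eif1*, which guards start codon selection, had the highest density, at 2540.0, 2294 and 1997 in WT libraries 1 to 3 and 2334, 2226 and 2011 in KO. *Eef1a2* followed at 1423, 1914 and 1380.2 in WT and 1294, 1292 and 1291 in KO. The WT libraries of *Eif1* did not overlap those of *Eef1a2*, and those of *Eef1a2* did not overlap those of *Eef1a1*. *Eef1a1*, the general eEF1A, *Eif5a*, which helps ribosomes past difficult peptide bonds, and *Eef2* came next, with WT means of 505 ± 88.5, 477 ± 72.3 and 421 ± 192 (SD, n = 3 each) and overlapping libraries. From there on, neighbours in the order overlapped at nearly every step down to the regulators *Eif2d* and *Eif4enif1*, at 10.6 ± 2.10 and 10.1 ± 1.67 (SD, n = 3 each).

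**Figure D1:**
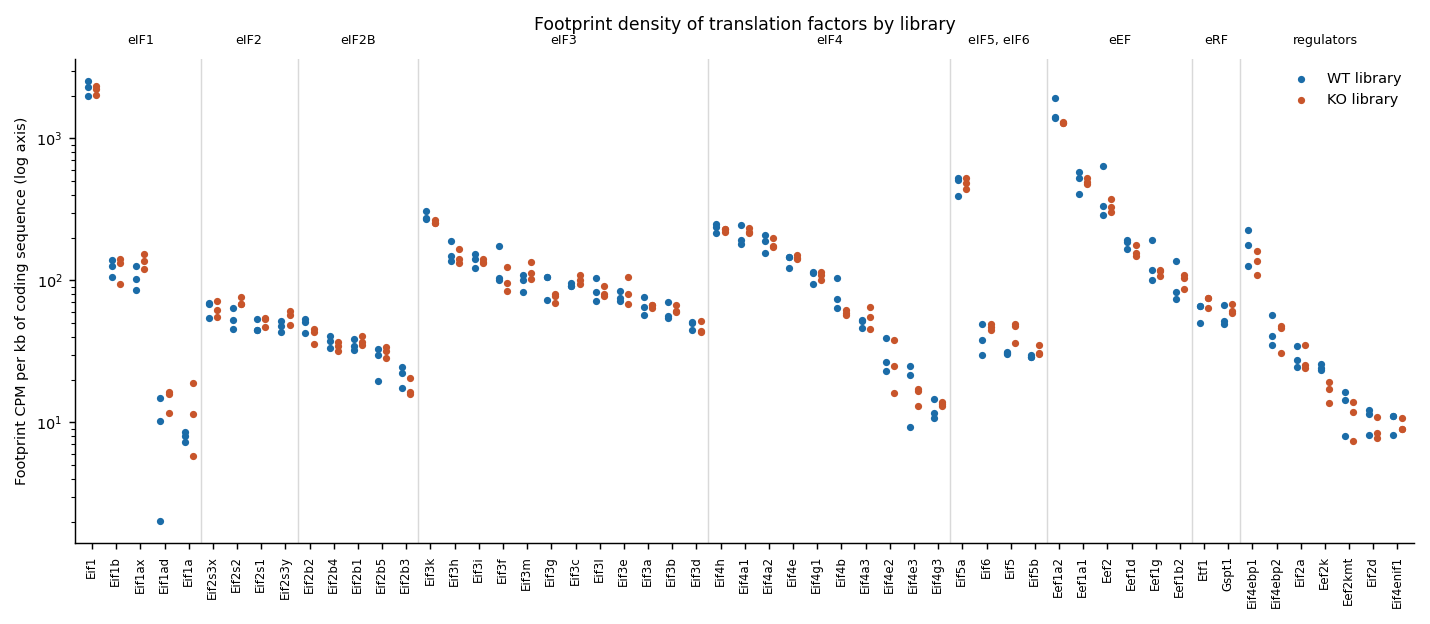
Footprint density (CPM per kilobase of coding sequence, log axis) of the factors with at least 1 footprint in each of the 6 footprint libraries, grouped by role. Points are libraries, 3 WT and 3 KO per gene. Eif1 and Eef1a2 lie highest in both genotypes, and the WT and KO points of most genes overlap.

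Subunits of a complex lay closer to each other in footprint density than in RNA level per kilobase of transcript. The 12 subunits of eIF3 other than eIF3j ran from 48.3 (*Eif3d*) to 285 (*Eif3k*) in WT footprints, a 5.90-fold range, against 14.0-fold in RNA. The 5 subunits of eIF2B ran from 21.4 (*Eif2b3*) to 48.6 (*Eif2b2*), a 2.28-fold range, against 26.9-fold in RNA. For eIF2, whose γ subunit is encoded by an X-linked and a Y-linked gene, the density was 47.5 ± 4.85 for the α subunit (*Eif2s1*), 54.1 ± 9.56 for β (*Eif2s2*) and 111 ± 5.04 for the sum of *Eif2s3x* and *Eif2s3y* (SD, n = 3 each, WT). In WT the α and β libraries overlapped and the γ sum lay above them. In KO the libraries of β (70.7 ± 4.79) all lay above those of α (51.6 ± 4.29; SD, n = 3 each). The eIF2 subunits spanned 2.34-fold in footprints and 87.2-fold in RNA, where *Eif2s2* was highest and *Eif2s1* lowest. The release factors *Etf1* and *Gspt1* were 1.10-fold apart in footprints and 2.73-fold in RNA. The eEF1B subunits *Eef1b2*, *Eef1d* and *Eef1g* were the exception, 1.85-fold apart in footprints and 1.39-fold in RNA. The KO libraries gave 5.55-fold for eIF3, 2.37-fold for eIF2B and 2.29-fold for eIF2 in footprints, with 13.8-fold, 25.0-fold and 57.6-fold in RNA. In WT RNA, *Eif2s2* stood at 216 with *Eif2s3y* next at 12.3, and *Eif2b4* at 53.8 with *Eif2b5* next at 16.8. The RNA ranges of eIF2 and eIF2B thus rest largely on single genes. RNA was divided by the whole transcript length, and the region counted is not given in the sources used here. These ranges are descriptions without a test.

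Among the eIF4 proteins, *Eif4h* and the helicases *Eif4a1* and *Eif4a2* lay highest in WT footprint density, at 235 ± 16.5, 206 ± 32.7 and 184 ± 26.2 (SD, n = 3 each). The cap-binding protein *Eif4e* had a footprint density of 122, 145 and 146 in the WT libraries and 149.8, 142 and 143 in KO. The scaffold *Eif4g1* lay below *Eif4e* without overlap, at 112, 115 and 94.7 in WT and 114, 109 and 101 in KO. *Eif4e2*, a cap-binding relative that represses translation, and *Eif4a3*, the helicase-like protein of the exon junction complex, lay lower at 29.7 ± 8.73 and 50.1 ± 3.69 (SD, n = 3 each, WT). In the group of eIF5, eIF5A, eIF5B and eIF6, *Eif5a* stood far above *Eif6* (39.1 ± 9.76), *Eif5* (30.8 ± 0.463) and *Eif5b* (29.0 ± 0.499), whose densities lay close together (SD, n = 3 each, WT). In the eIF1 group, the X-linked *Eif1ax* had 104 ± 20.3 and *Eif1b* 124 ± 16.9 (SD, n = 3 each, WT), while *Eif1ad*, a relative of eIF1A, and *Eif1a* lay at 9.04 ± 6.51 and 7.94 ± 0.601 (SD, n = 3 each, WT). The regulators with footprints in every library fell between *Eif4ebp1*, which binds eIF4E when hypophosphorylated, at 177 ± 50.1, and *Eif4enif1*, the eIF4E transporter (SD, n = 3, WT). *Eef2k* and *Eef2kmt*, enzymes that modify eEF2, had densities of 24.4 ± 1.21 and 12.9 ± 4.42 in WT (SD, n = 3 each), far below *Eef2* itself. *Eef1aknmt*, a methyltransferase of eEF1A, could not be matched to an annotated transcript and has counts only, 62, 50 and 40 footprints in WT and 90, 73 and 29 in KO.

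Several members were at or near 0. *Eif3j1* and *Eif3j2*, copies of the loosely bound eIF3j subunit whose coding sequences are 99.2% identical, had 0 counts in all 12 libraries. Every 28-base stretch of either gene's coding sequence also occurs in another listed transcript. Reads of that length from the coding sequence could therefore not be assigned to a single listed gene. How such reads were treated is not given in the sources used here. The UTRs, with 4500 bases in the 3′ UTR of *Eif3j1* and 1537 in that of *Eif3j2*, were not searched for shared stretches. *Eif4e1b*, an oocyte form of eIF4E, had 1 RNA count in all, and *Eif4ebp3* had 1 footprint count in all. *Gspt2*, the retrogene copy of *Gspt1*, had 9, 5 and 2 footprint counts in WT and 1, 8 and 0 in KO. *Eif5a2*, the second eIF5A, had 17, 2 and 2 in WT and 5, 5 and 0 in KO, and at most 1 RNA count in a library. Between 45.1% and 51.4% of the 28-base coding stretches of *Eif1a*, *Eif4a3* and *Eif4e3* occur in other listed transcripts, and the counts of these genes are uncertain for that reason.

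*Eef1a2* carried most eEF1A footprints in the ventricle, while its share of the isoforms' RNA lay between 42.6% and 53.9% of counts. *Eef1a1* lies at chr9:78478449-78481724 and *Eef1a2* at chr2:181147653-181157014 (GRCm38, minus strand for each). Their coding sequences are 80.0% identical and share no 28-base stretch with each other or with another listed transcript. In footprints, *Eef1a2* stood at 1981, 2665 and 1921 CPM in WT and 1802, 1798 and 1798 CPM in KO. *Eef1a1* stood at 565, 803 and 735 CPM in WT and 685, 734 and 657 CPM in KO, below *Eef1a2* in each of the 6 libraries at coding lengths of 1389 and 1392 bases. In RNA, *Eef1a2* stood at 1041, 725 and 1171 CPM in WT and 1072, 865 and 1056 CPM in KO. *Eef1a1* RNA stood at 889, 976 and 1258 CPM in WT and 1028, 1114 and 1267 CPM in KO, with overlapping ranges for the isoforms.

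Per coding length, *Eef1a2* exceeded *Eef1a1* by 3.14 ± 0.471 fold in WT footprints (SD, n = 3) and by 2.60 ± 0.145 fold in KO footprints (SD, n = 3). The share of *Eef1a2* in the summed counts of the isoforms was 75.7% ± 2.93 in footprints of WT and 72.2% ± 1.13 in those of KO (SD over 3 libraries, n = 3; exact two-sided permutation p = 0.3). In RNA the share was 48.3% ± 5.65 for WT and 46.7% ± 3.82 for KO libraries (SD, n = 3; exact two-sided permutation p = 0.7). The RNA difference of -1.51 percentage points changed sign without WT replicate 1, to 1.33. The smallest p that 3 against 3 libraries allow is 0.1. Per length, the WT share was 75.6% of footprints and 44.6% of RNA, and the KO share 72.2% and 43.0%. No test separated the genotypes in either assay, while each footprint library had a higher *Eef1a2* share than each RNA library. The summed density of the eEF1A isoforms exceeded that of *Eef2* by 5.31 ± 1.27 fold in WT (SD, n = 3) and by 5.40 ± 0.504 fold in KO libraries (SD, n = 3).

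**Figure D2:**
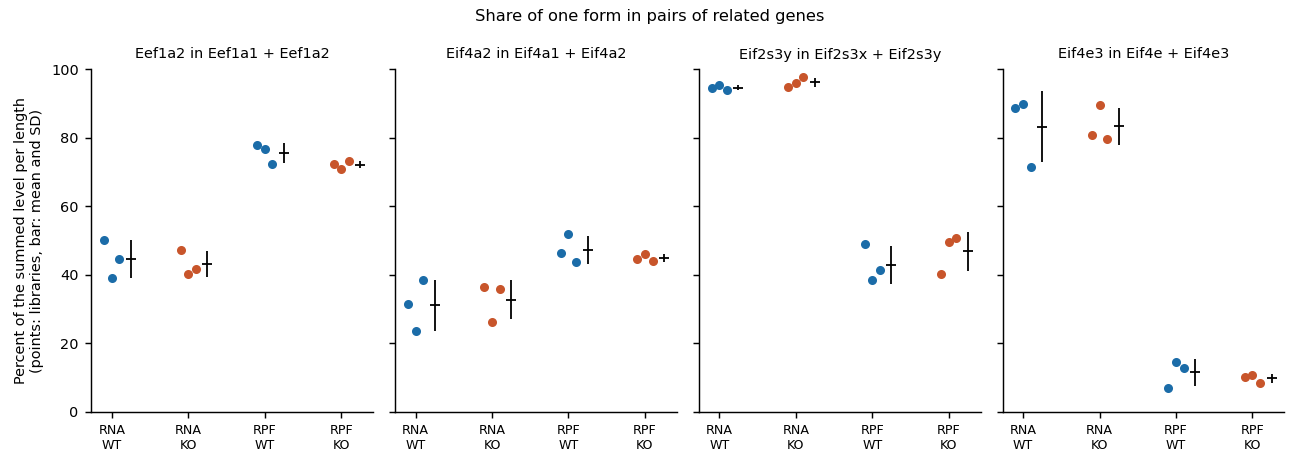
Share of the second gene in the summed level of a pair of related genes, per transcript length in RNA and per coding length in footprints (percent). Points are libraries, WT in blue and KO in orange, and the bar beside them is the mean with SD (n = 3). Eef1a2 takes a larger and Eif2s3y and Eif4e3 a smaller share of footprints than of RNA in both genotypes. The counts of Eif4e3 are uncertain because much of its coding sequence is shared with other listed transcripts.

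Other pairs differed in how far footprints and RNA matched. *Eif2s3y*, the Y-linked γ subunit of eIF2, was detected in all 12 libraries. Its share of the pair with *Eif2s3x* was 94.6% ± 0.733 of RNA per transcript length in WT (SD, n = 3). In footprints per coding length its share was 42.9% ± 5.44 for WT (SD, n = 3) and 46.9% ± 5.68 for KO libraries (SD, n = 3). The γ subunit footprints were split between the genes far more evenly than the RNA. The raw RNA counts in WT were 20, 17 and 24 for *Eif2s3x* and 170, 180 and 191 for *Eif2s3y*. In the coding sequence of *Eif2s3x*, 7 of 1392 stretches of 28 bases also occur in another listed transcript. *Eif4e3*, an eIF4E family member that binds the cap in an unusual way, took 83.3% ± 10.3 of the RNA level summed with *Eif4e* and 11.5% ± 3.97 of the footprints in WT (SD, n = 3 each). This contrast is uncertain, since 51.4% of the 28-base coding stretches of *Eif4e3* occur in other listed transcripts. *Eif4e* had only 41, 43 and 127 RNA counts in WT. *Eif4a2*, the helicase isoform known from muscle and brain, took 31.1% ± 7.49 of RNA and 47.2% ± 4.18 of footprints against *Eif4a1* in WT (SD, n = 3 each). *Eif4g3* took 10.3% ± 1.17 of footprints against *Eif4g1*, and *Eif1b* took 5.24% ± 1.14 against *Eif1* (SD, n = 3 each, WT). *Eif4ebp2*, a repressor that sequesters eIF4E, took 20.2% ± 1.58 of footprints against *Eif4ebp1* in WT (SD, n = 3), yet had 0, 0 and 0 RNA counts in WT and 0, 1 and 0 in KO.

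Footprints were next compared with RNA within each genotype, in libraries that the other genotype does not share. The ratio is relative to the typical gene, since each assay is scaled on its own. In WT, 14 of 52 translation factors tested had more footprints relative to RNA and 27 had fewer (edgeR's quasi-likelihood test, adjusted p below 0.05), against 37.2% and 35.6% of all 6592 genes tested. In KO the counts were 14 higher and 27 lower of 53, against 39.0% and 36.4% of 6928 genes. In both genotypes, 12 of 51 were higher and 25 lower, against 2147 and 2134 of 6269 genes. The median log2 ratio of the factors was -0.60 in WT and -0.56 in KO, against 0.05 and 0.05 for all genes tested. The split differed with the filter, and the named factors whose sign or call changed all moved down by similar amounts. With a mean of at least 50 counts required it was 9 higher and 32 lower in WT and 7 and 37 in KO, against 43.1% and 38.9% of all genes in WT and 44.1% and 38.6% in KO. With no filter it was 11 and 33 in WT and 10 and 35 in KO, against 29.0% and 24.4% of all genes in WT and 30.8% and 25.7% in KO. A factor entered the test only with enough counts in both assays, which left out *Eif4ebp2*, and *Eif4h* in WT.

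By role, the eEF elongation factors and eIF3 lay low and the release factors high. Of the 6 elongation factors, 5 were lower in WT and 6 in KO, against 35.6% and 36.4% of all genes tested. The median log2 ratio of the elongation factors was -2.54 in WT and -2.71 in KO. The eEF1B subunit *Eef1b2* had a log2 ratio of -4.68 in WT (SE 0.27, edgeR adjusted p = 2e-08) and -4.60 in KO. Among its partners, *Eef1d* had log2 ratios of -3.25 (WT) and -3.35 (KO), and *Eef1g* of -2.97 (WT) and -3.22 (KO). *Eef1a1* had a log2 ratio of -2.10 in WT (SE 0.22, edgeR adjusted p = 2.1e-06) and -2.19 in KO, and *Eef2* of -1.55 and -1.94. *Eef1a2* had a log2 ratio of -0.37 in WT (SE 0.23, edgeR adjusted p = 0.16), short of the threshold. It was called as lower there at -0.89 with no filter, -0.83 with a mean of at least 50 counts, -0.54 with a length offset and -0.73 without WT replicate 2. In KO its log2 ratio was lower, -0.63 (SE 0.15, edgeR adjusted p = 0.0021), and without KO replicate 3 the adjusted p was 0.056.

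Of the 12 eIF3 subunits tested, 10 were lower in WT and 9 in KO (all genes tested: 35.6% and 36.4%), and none was higher. Their median log2 ratio was -1.43 in WT and -1.44 in KO, with *Eif3f*, which carries a peptidase-like fold, lowest at -2.14 and -2.33. Both release factors tested were higher, against 37.2% of all genes tested in WT and 39.0% in KO. *Etf1* had a log2 ratio of 1.99 in WT (SE 0.26, edgeR adjusted p = 1.5e-05) and 2.03 in KO, and *Gspt1* of 1.32 (SE 0.21, edgeR adjusted p = 9.2e-05) and 1.71. Of the eIF4 proteins, 4 of 9 were higher and 2 lower in WT, against 37.2% and 35.6% of all genes tested. The share of higher eIF4 proteins was thus near that of all genes. The cap-binding protein *Eif4e* was higher, with a log2 ratio of 1.90 in WT (SE 0.30, edgeR adjusted p = 8.9e-05) and 2.21 in KO, and *Eif4e3* lower, at -2.42 and -2.42. *Eif4a2* was higher, with a log2 ratio of 0.90 in WT and 0.86 in KO, as was *Eif4g1*, at 0.72 and 0.63. The calls of both were sensitive to the settings. Without WT replicate 1 the edgeR adjusted p was 0.064 for *Eif4a2* (log2 ratio 0.80) and 0.093 for *Eif4g1* (0.55), and without WT replicate 2 it was 0.17 (0.55) and 0.12 (0.55). With a mean of at least 50 counts, the calls of *Eif4a2* were lost in both genotypes, at log2 ratios of 0.44 and 0.26, as with no filter, at 0.39 and 0.35. Those of *Eif4g1* were lost in both genotypes with a mean of at least 50 counts (0.25 and 0.0298), with no filter (0.20 and 0.12) and with a length offset (0.20 and 0.10). *Eif4h*, the helper of the helicase, had 12, 10 and 44 RNA counts in WT and 21, 15 and 27 in KO against 722, 647 and 777 and 1164, 1031 and 755 footprint counts. It was tested in KO only, with a log2 ratio of 4.36 (SE 0.20, edgeR adjusted p = 2.3e-09).

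Within eIF2 and eIF2B, subunits of the same complex lay on opposite sides. *Eif2s2* was lower, with a log2 ratio of -4.87 in WT (SE 0.29, edgeR adjusted p = 2e-08) and -4.02 in KO. *Eif2s3x* was higher, with a log2 ratio of 3.62 in WT (SE 0.24, edgeR adjusted p = 4.4e-08) and 4.10 in KO, and *Eif2s1* was higher, at 0.89 and 0.88. The *Eif2s1* call was lost in both genotypes with no filter and with a mean of at least 50 counts, the latter at an edgeR adjusted p of 0.087 in WT and 0.15 in KO. Of the eIF2B subunits, *Eif2b1* (log2 ratio 1.47 in WT, 1.69 in KO) and *Eif2b2* (1.27 and 0.93) were higher, and *Eif2b4* (-2.42 and -2.31) was lower with the remaining subunits. The KO call of *Eif2b2* was also lost with no filter (edgeR adjusted p = 0.11) and with a mean of at least 50 counts (edgeR adjusted p = 0.14), which also ended the KO call of *Eif4ebp1* (edgeR adjusted p = 0.083). Otherwise *Eif4ebp1* was higher, with log2 ratios of 1.14 in WT and 1.02 in KO. In the group of eIF5, eIF5A, eIF5B and eIF6, *Eif5b* had a log2 ratio of -5.06 in WT (SE 0.32, edgeR adjusted p = 3.6e-08) and -4.71 in KO, and *Eif5* of -5.14 (SE 0.37, edgeR adjusted p = 8.1e-08) and -4.11. *Eif5a* was higher, with log2 ratios of 1.79 and 1.61, and *Eif6*, which keeps the large subunit apart until it is needed, was lower, at -1.05 and -0.69. *Eif1* was lower, with a log2 ratio of -0.93 in WT and -1.03 in KO, but with an offset for transcript and coding length its ratio turned to 0.27 and 0.17 and was not called.

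Sequence features of the transcripts were set beside these ratios. For each gene the 30 coding bases with the most A were found on the sense strand of its GENCODE M21 transcript (GRCm38). A coding sequence was called A-rich when this window held 21 or more A in 30 bases, a threshold chosen after the values were seen, which 552 of 21390 listed coding sequences (2.58%) met. Only windows of selected members are shown, picked after the values were seen, and they are not all those with extreme ratios. Of the members not shown, the low-ratio *Eef1d*, *Eef1g* and *Eif4e3* hold at most 14, 17 and 15 A in a window. The high-ratio *Eif4e* and *Etf1* hold at most 17 and 19. The selected windows are written 5′ to 3′ with A in capitals. First come the low-ratio factors *Eif5b*, *Eif2s2*, *Eif5*, *Eif2b4* and *Eef1b2*, then the high-ratio factors *Eif4h*, *Eif5a* and *Eif2s3x*. Last is *Eif2s3y*, the Y-linked partner of *Eif2s3x*.
Eif5b (24 A): AAAAAgAAAAAAgAtAAgAAgAAAAAgAAA
Eif2s2 (24 A): AAAAgAAAAAgAAgAAAAAgAcAAAAAAgA
Eif5 (23 A): AAAgAAAgAAAAggAAAAgAAAAAtAgAAA
Eif2b4 (20 A): cgAAAAgAAAAgAAAcAgcAgAAgAAgAAA
Eef1b2 (16 A): AtAAtcAcAtcAAgtcgtAtgAAAAAgAAA
Eif4h (16 A): AgtcAgAgAcAAAgAcAcAgAcAAAtttAA
Eif5a (13 A): AcAtttttActgggAAgAAAtAtgAAgAtA
Eif2s3x (16 A): tAcAgAAtAAAAttgAtctggtAAAAgAAA
Eif2s3y (17 A): AAAAAtgAActAgAAAggAAtAttAccAtA

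The windows of *Eif5b* (chr1:38021611-38021640, plus strand, exon 5), *Eif2s2* (chr2:154887739-154887768, minus strand, exon 3) and *Eif5* (chr12:111541728-111541757, plus strand, exon 7) lie within coding exons. These were the only 3 of the 51 tested members with a matched transcript that were A-rich, and their median log2 ratio was -5.06 in WT and -4.11 in KO. Among the genes tested in WT that have a matched transcript, 343 (5.25%) were A-rich, with a median of -1.75, and 272 of them lay below 0. In KO the median of the 362 A-rich genes was -1.50. Genes whose window held 18 to 20 A had a median of 0.11 in WT, close to the 0.12 of genes with fewer. Members just below the threshold, with 20 A, lay on either side: *Eif2b4* (window chr5:31192217-31192246, minus strand, exon 3) had a low ratio and *Gspt1* a high one. *Eef1b2* (window chr1:63177840-63177869, plus strand, exon 2) was low with at most 16 A in a window, so not every low ratio came with an A-rich window. The windows of the remaining genes shown lie at chr5:134627590-134627619 (minus strand, exon 2) for *Eif4h*, chr11:69917973-69918002 (minus strand, exon 4) for *Eif5a*, chrX:94203995-94204024 (minus strand, exon 6) for *Eif2s3x* and chrY:1011914-1011943 (plus strand, exon 3) for *Eif2s3y*. *Eif3j1* and *Eif3j2*, which had no counts, hold up to 22 A in a window.

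The ratios were also set beside the length of the 3′ UTR. Across the 6531 genes tested in WT that have a matched transcript, Spearman's rho between the log2 ratio and 3′ UTR length was 0.35. It was -0.32 for RNA CPM and 0.00823 for footprint CPM. These values are across genes, which share libraries and depth and are not independent replicates. Among the translation factors rho was 0.23 in WT (n = 51) and 0.22 in KO (n = 53), and without the 3 A-rich members 0.41 and 0.38. The 24 tested factors with a 3′ UTR under 500 bases had a median log2 ratio of -1.06 in WT, against -0.68 for all genes of that class. The 12 with 500 to 1000 bases had 0.0389, against 0.52. The 7 with 1000 to 2000 bases lay opposite to all genes, at -2.14 against 0.75 in WT, and in KO 9 such factors had -1.46 against 0.73. The 8 with 2000 bases or more had 0.94, against 0.60. *Eif2s3x* and *Eif2s3y*, which have equal coding lengths of 1419 bases, have 3′ UTRs of 2152 and 343 bases. *Eif4ebp2*, with footprints but almost no RNA counts, has a 3′ UTR of 5306 bases, and *Eef1d*, with a low ratio, has a 3′ UTR of 1348. The part of A-rich windows and of 3′ UTR length in the ratios was not tested.

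**Figure D3:**
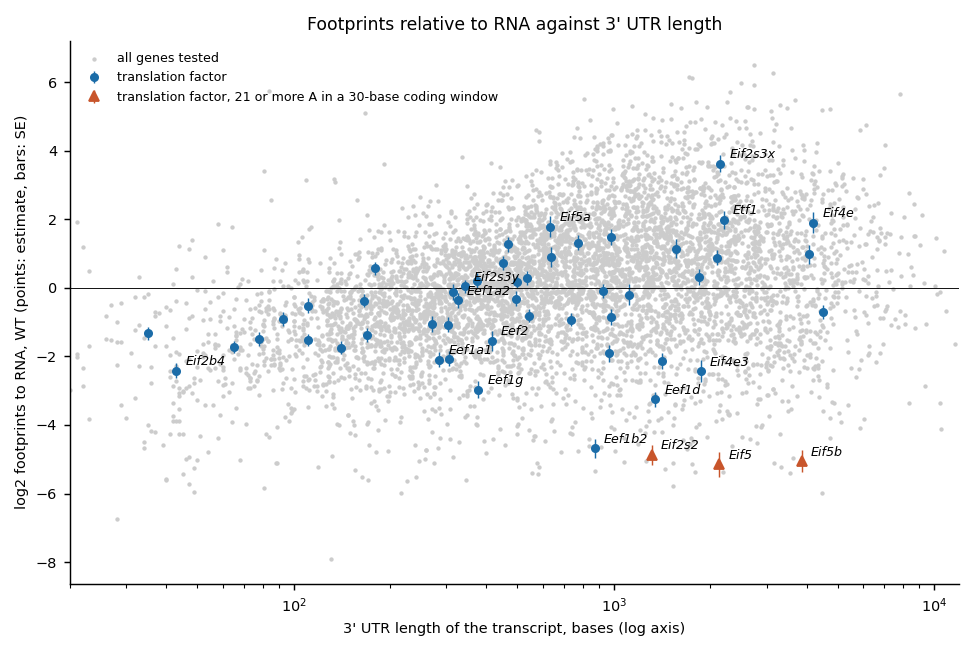
Log2 ratio of footprints to RNA in WT (edgeR estimate, bars: SE) against the 3′ UTR length of the transcript (bases, log axis). Grey points are all genes tested with a 3′ UTR of 20 bases or more, blue points translation factors, orange triangles the 3 A-rich factors. Factors with short 3′ UTRs lie mostly below 0, and Eif5b, Eif5 and Eif2s2 lie between -5.14 and -4.87.

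The RNA libraries differed in a way that cut across the genotypes unevenly, and the A-rich factors moved with it. A-rich transcripts took 9.64%, 9.56% and 6.01% of nuclear RNA counts in WT libraries 1 to 3 and 6.70%, 9.72% and 6.07% in KO libraries 1 to 3, so WT 3, KO 1 and KO 3 stood below the others. *Eif5b* RNA stood at 1662, 1353 and 680.1 CPM in WT and 853, 1709 and 738 CPM in KO, lowest in the same 3 libraries. *Eif5* RNA stood at 666, 578 and 226 CPM in WT and 312, 544 and 214 CPM in KO, and *Eif2s2* RNA at 686, 598 and 361 and 396, 564 and 275 CPM. Each of these genes was lower in the 3 libraries with a low A-rich share, to which the genes themselves contribute, than in the other RNA libraries. *Eif4a2* went the other way, at 33.7, 27.3 and 63.9 CPM in WT and 53.2, 30.4 and 48.5 CPM in KO, and *Eif5a* stood at 16.8, 14.8 and 34.8 and 36.0, 18.1 and 25.1 CPM. In footprints the values of *Eif5b* did not separate these sets of libraries, at 108, 105 and 104 CPM in WT and 109.7, 128 and 112 CPM in KO. What sets these RNA libraries apart is not given in the sources used here.

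**Figure D4:**
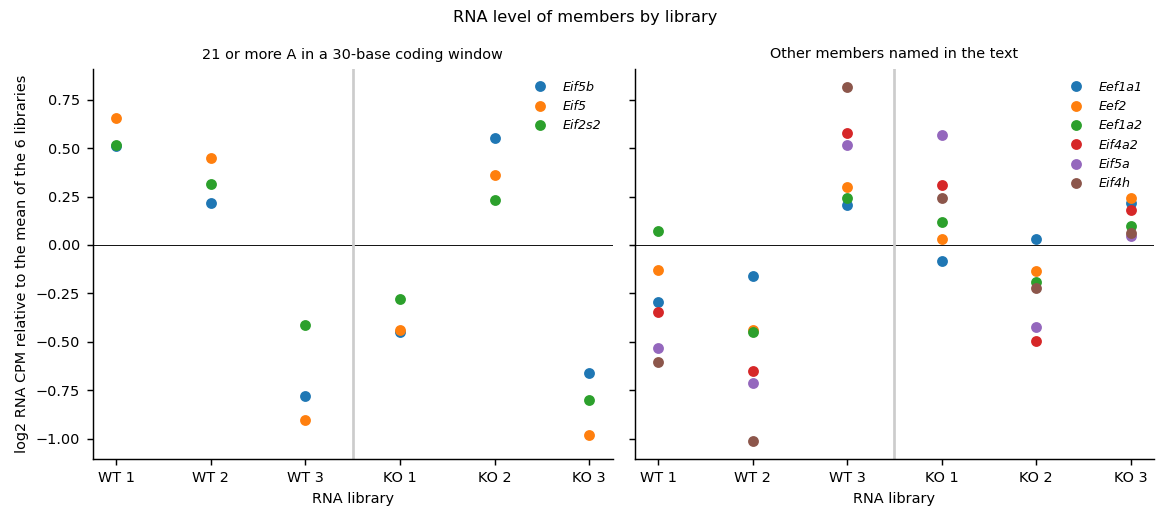
RNA CPM of 9 factors in the 6 RNA libraries, as log2 relative to each gene's mean over the libraries. Left, the A-rich factors Eif5b, Eif5 and Eif2s2; right, Eef1a1, Eef2, Eef1a2, Eif4a2, Eif5a and Eif4h. The A-rich factors are low in WT 3, KO 1 and KO 3, where Eif4a2, Eif5a and Eif4h are above their mean.

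No translation factor was called as different between WT and Rpl3l-/- hearts. In edgeR's quasi-likelihood test, 0 of 55 factors tested passed in RNA, 0 of 56 in footprints and 0 of 55 in translational efficiency (TE, the interaction of assay and genotype). The share called among all genes tested was 0.0119% in RNA, 0.00897% in footprints and 0% in TE, *Rpl3l* itself being the gene called in RNA and in footprints. At an unadjusted p below 0.05 there were 0 factors in RNA, 5 in footprints and 2 in TE, against 2.54%, 5.96% and 3.73% of all genes tested. DESeq2 also called 0 factors in each, with 0, 5 and 2 at an unadjusted p below 0.05. In RNA the log2 differences between genotypes lay between -0.51 and 0.29, and in footprints between -0.55 and 0.69, with median SEs of 0.20 and 0.17. Their medians were -0.00717 in RNA and -0.02 in footprints, against -0.00658 and 0.00141 for all genes tested.

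In footprints, 3 factors had every KO library above every WT library, against 6.27% of genes tested, and 4 had every KO library below, against 5.77%. *Eif5* stood at 40.3, 39.8 and 39.1 CPM in WT and 63.5, 61.1 and 46.9 CPM in KO, a log2 difference of 0.53 (SE 0.18, edgeR adjusted p = 0.83). *Eif2s2* stood at 45.3, 52.2 and 64.1 CPM and 67.9, 75.9 and 67.5 CPM, a log2 difference of 0.39 (SE 0.17, edgeR adjusted p = 0.83). *Eif5b*, the remaining factor with KO above WT, differed by 0.14. These 3 are the A-rich factors, by a threshold chosen after the values were seen. A-rich transcripts took 3.28%, 3.11% and 2.92% of nuclear footprint counts in WT and 2.97%, 3.41% and 3.46% in KO, with overlapping ranges. Whether A-rich genes as a set differ between genotypes in footprints was not tested. *Eef2k*, the kinase that inhibits eEF2, stood at 52.7, 50.6 and 55.8 CPM in WT and 37.1, 41.8 and 29.6 CPM in KO, a log2 difference of -0.55 (SE 0.18, edgeR adjusted p = 0.83). *Eif4b* stood at 135, 192 and 118 CPM and 105, 113 and 109 CPM, a log2 difference of -0.44 (SE 0.17, edgeR adjusted p = 0.83). For *Eef1a2* the difference was -0.28 (SE 0.13, edgeR adjusted p = 0.83), and for the eIF3 subunit *Eif3k* -0.15. Without WT replicate 2 the differences were -0.11 for *Eef1a2*, -0.0839 for *Eif3k* and -0.21 for *Eif4b*, and without KO replicate 2 that of *Eif5b* was 0.0664. None of these 7 passed the test.

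In RNA, 1 factor had every KO library above every WT library, against 4.14% of genes tested, and 0 had every KO library below, against 3.19%. This was *Eif1b*, the minor eIF1, whose mean was 12.7 ± 1.78 CPM over the WT libraries (SD, n = 3) and 15.6 ± 0.492 CPM over the KO libraries (SD, n = 3), a log2 difference of 0.29 (SE 0.17, edgeR adjusted p = 0.999). By role, the 8 regulators tested in footprints had estimates below 0 in all cases, with a median log2 difference of -0.23, and none was called. Of the elongation factors 5 of 6 had estimates below 0 in footprints (median -0.22) and 5 of 6 above 0 in RNA (median 0.03). Among all genes tested, 5554 of 11153 lay below 0 in footprints and 4111 of 8379 above 0 in RNA. *Eef2* stood at 744, 1652 and 861 footprint CPM in WT and 781, 959 and 839 in KO, with WT replicate 2 apart from the other 5 libraries. The log2 difference of *Eef2* was -0.34 (SE 0.22, edgeR adjusted p = 0.85), and without WT replicate 2 it was 0.10. WT replicate 2 was also the highest WT footprint library for *Eef1a1*, *Eef1a2*, *Eef1b2* and *Eef1g*, but not for *Eef1d*. *Eef1g* stood at 132, 254 and 156 CPM in WT and *Eef1b2* at 50.4, 92.2 and 55.8 CPM. The group median thus leans on this library. In TE, the unadjusted p was below 0.05 for *Eif2s2* (log2 difference 0.83, edgeR adjusted p = 0.9997) and *Eif4b* (-0.65, edgeR adjusted p = 0.9997). *Eif2s2* is A-rich, with low RNA in WT 3, KO 1 and KO 3. Its TE estimate was not adjusted for the A-rich share of the RNA libraries.

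**Figure D5:**
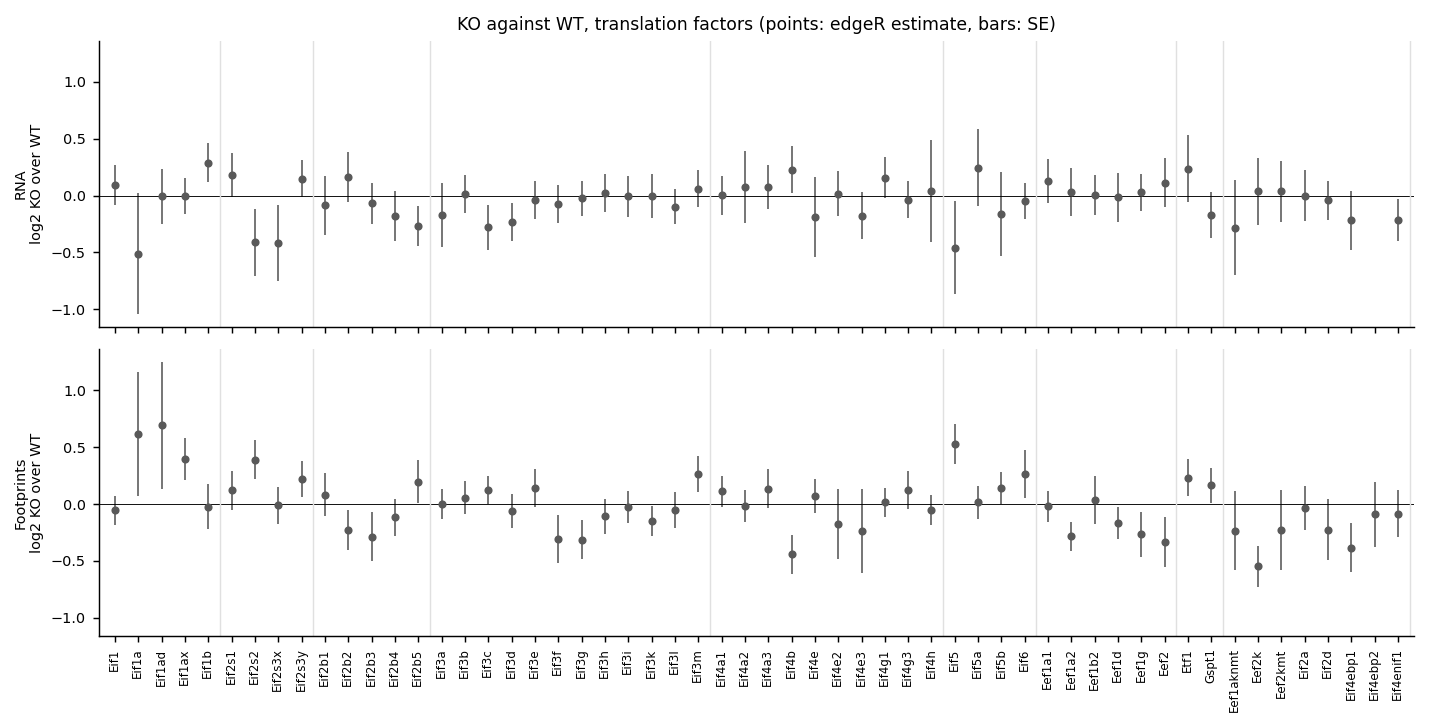
Log2 difference of KO from WT for the translation factors tested in footprints, in RNA (top) and footprints (bottom), grouped by role. Points are edgeR estimates and bars are SEs. Estimates lie between -0.55 and 0.69, and none passed the test.

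With the A-rich share of each RNA library added as a covariate, a choice made after the values were seen, the median SE of the factors in RNA went from 0.197 to 0.136 on the log2 scale. The RNA log2 differences between genotypes of *Eif5*, *Eif2s2* and *Eif5b* went from -0.46, -0.41 and -0.16 to -0.09, -0.21 and 0.11. These genes are A-rich and count towards the covariate, so a move of this kind was built in. The covariate also overlaps genotype, since the low-share libraries were WT 3, KO 1 and KO 3. No factor was called, and 1 had an unadjusted edgeR p below 0.05, *Eif2b5*, the catalytic subunit of eIF2B (log2 difference -0.34, SE 0.12, adjusted p = 0.66). The other genes of the pathway were kept as a list of 43, which holds the eIF2α kinases, mTOR complex members, poly(A)-binding proteins, ribosome rescue factors and the enzymes that modify eIF5A and the elongation factors. Of these, 0 of 36 were called between genotypes in RNA, 0 of 42 in footprints and 0 of 36 in TE (edgeR), with 2, 3 and 0 at an unadjusted p below 0.05 (all genes tested: 2.54%, 5.96% and 3.73%). Footprints relative to RNA were higher for 11 and lower for 16 of 32 tested in WT, against 37.2% and 35.6% of all genes tested. In KO they were higher for 10 and lower for 17 of 31, against 39.0% and 36.4%.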

How the data were processed

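The data are 3 footprint and 3 RNA libraries each from WT and Rpl3l-/- left ventricle. The authors deposited 1 table of raw read counts per library, with 21669 transcript names. Cutadapt 1.18 and Bowtie2 2.4.2 are listed in the submitters' processing notes, with no role; the genome build, the region counted, the use of strand and the treatment of reads with several matches are not given in the sources used here. RNA reads outside coding sequence, or reads shared by gene copies, could change the ratio of footprints to RNA, so the ratios are relative and not absolute efficiencies.

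Names were matched to GENCODE M21 transcripts (GRCm38) for 21428 genes and 61 of 62 members, for lengths, coordinates and coding sequence. Counts were tested with edgeR 4.0.16 (R 4.3.3): genes passing filterByExpr (minimum count 10) within each assay, TMM scaling, quasi-likelihood F test, Benjamini-Hochberg adjustment over all genes tested and a threshold of 0.05. Footprints against RNA used the libraries of 1 genotype and the genes passing in both assays, and translational efficiency the interaction over 12 libraries. CPM were scaled by TMM within an assay. DESeq2 1.42.0, other scalings and filters, a length offset, a replicate block and leaving out replicates were the alternatives. The tests were checked on simulated counts. The depth per library, given with the results, limits the genes with few RNA counts most.

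The deviations of same-numbered RNA and footprint libraries from their group means correlated at 0.11, 0.11 and 0.12 in KO, all above 0.1, so these numbers were taken to pair libraries, from the data and not from the labels. In WT they correlated at 0.08, 0.15 and 0.08, not all above 0.1. In both genotypes each library correlated best with its own number, the highest correlation with another number being -0.00137. The main tests of ratios and of translational efficiency were fitted without this pairing. It entered only in the alternative with a replicate block.

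The members and lists were chosen with earlier results of these data known. Named genes are the elongation factors *Eef1a1*, *Eef1a2* and *Eef2*, both genes of 8 paralog pairs, up to 5 members per direction and assay whose genotypes did not overlap, and up to 8 per direction with the largest ratio called in both genotypes. The extremes of complexes, the density order, *Eif4h*, *Eif2s1*, *Eif3f*, *Eif6*, *Eif2d*, *Eif2b5*, *Eif3j1*, *Eif3j2* and other members outside that rule were named after their values were seen.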

Additional observations from a re-analysis of the deposited data

How the results depend on the processing

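Between genotypes, 0 translation factors were called in RNA, footprints or TE under each alternative run. Among all genes, the RNA call count went from 1 to 4 with no filter and 2 with the A-rich share as covariate. For footprints it went from 1 to 5 in DESeq2, 60 with no filter, 4 with the replicate block and between 1 and 2 with a library left out (WT replicate 2 or WT replicate 3). For TE it went from 0 to 1 in DESeq2 and 3 with no filter. The replicate block changed no other count of calls by over 1.5 times and no call of a named factor. WT and KO libraries of a number share only that number: their deviations correlated at -0.21, 0.36 and 0.41 in RNA and 0.04, 0.01 and 0.00 in footprints, and in neither assay did every library correlate best with its own number.

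The ratio of footprints to RNA moved with the filter and the length offset. The median of all genes moved from 0.05 to 0.17 with a length offset, 0.14 with a mean of at least 50 counts and 0.20 with no filter in WT, and from 0.05 to 0.18, 0.17 and 0.23 in KO. With a mean of at least 50 counts, 9 factors were higher in WT and 7 in KO. With no filter, 8658 genes of all were called in WT and 9178 in KO. The 50-count mean and no filter moved the named factors whose sign or call changed down, by similar amounts within a genotype and setting. In WT the 50-count mean took *Eef1a2* from -0.37 to -0.83, *Eif4a1* from 0.30 to -0.17 and *Eif1b* from 0.21 to -0.25. In KO it took *Eif4a2* from 0.86 to 0.26 and *Eif4g1* from 0.63 to 0.0298. The all-gene medians rose over different sets of genes. Under these settings or the length offset, signs turned for some ratios near 0, and some of these became calls. With a length offset the log2 ratio was 0.27 for *Eif1* and -0.33 for *Eif2s3y* in WT, and 0.17 for *Eif1*, 0.79 for *Eif1b*, -0.27 for *Eif4g3* and -0.21 for *Eif2s3y* in KO. With a mean of at least 50 counts, *Eif4a1* was at -0.17, *Eif1b* at -0.25 and *Eif2s3y* at -0.42 in WT, and *Eif4a1* at -0.14, *Eif4g3* at -0.49 and *Eif2s3y* at -0.42 in KO. With no filter the log2 ratios were -0.22 for *Eif4a1*, -0.31 for *Eif1b* and -0.47 for *Eif2s3y* in WT, and -0.0509 for *Eif4a1*, -0.40 for *Eif4g3* and -0.33 for *Eif2s3y* in KO. Of these, *Eif1b* in KO was called higher with the length offset, *Eif4g3* and *Eif2s3y* in KO were called lower with a mean of at least 50 counts, and the others were not called. Without a change of sign, *Eif1b* was also called at 1.06 in WT with the length offset, and in KO at -0.65 with a mean of at least 50 counts and -0.56 with no filter, so its direction in KO depends on the setting. *Eif4g3* was called lower in WT at -0.47, -0.57 and -0.63 with the length offset, the 50-count mean and no filter, in that order. The cause was not tested.

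With each library left out, the log2 ratio of *Eif2s3y* ranged from -0.0375 to 0.12 in WT and -0.0292 to 0.26 in KO, of *Eif1b* from -0.26 to 0.0724 and of *Eif4g3* from -0.0281 to 0.24 in KO. The log2 difference between genotypes ranged from -0.15 to 0.17 for *Eef1a2* and -0.0455 to 0.33 for *Eef2* in RNA, where the covariate gave -0.0524 for *Eef1a2*. In footprints it ranged from -0.15 to 0.0921 for *Eef1a1* and -0.55 to 0.10 for *Eef2*. In TE it ranged from -0.23 to 0.0251 for *Eef1a1*, -0.50 to 0.0505 for *Eef1a2*, -0.76 to 0.16 for *Eef2* and -0.31 to 0.00354 for *Eif3k*. The *Eef1a2* share differed between genotypes by -4.32 to 1.33 percentage points in RNA and -5.09 to -2.34 in footprints. The KO call of *Eif4a1* was lost without any 1 of the 3 KO replicates, at 0.30 to 0.48. Few RNA counts limit the ratios of factors such as *Eif4h* and *Eif2s3x*.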
